A study of Bos indicus with 12 samples.

Results

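Deeply covered CpGs are described here in skeletal muscle of Nelore cattle (*Bos indicus*). These are the cytosines of CpG dinucleotides on autosomes 1 to 29 whose median coverage over 12 animals was 120 or more, in reads that the authors had scaled to a common depth. The rule found 3181 of 629700 autosomal CpGs, or 0.505%, in a table of 635469 CpGs in all. Each strand of a CpG was counted separately. *Longissimus thoracis* DNA was measured by reduced representation bisulfite sequencing (RRBS), with 1 library for each of 6 Tough animals, whose beef had the higher shear force, and 6 Tender animals, whose beef had the lower shear force. The labels give the shear force at 7 days of aging and the text of the study at 14 days, for the same animals. All animals were of the same breed, and the labels name neither a treatment or allele that separates the groups nor an age. DNA came from whole muscle, so the cell types in it were not separated.

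RRBS cuts DNA with the enzyme *MspI* and reads the ends of short fragments, so reads pile up at fixed positions and each fragment is read from its opposite ends on opposite strands. Bisulfite makes unmethylated cytosines read as thymine, while methylated cytosines stay unchanged. Where the genome holds more copies of a sequence than the reference assembly shows, reads of all copies can stack on a single site, and the measured methylation is then an average over copies. In mammals, satellite repeats near the centromeres and many transposon copies are heavily methylated in somatic tissue, whereas CpG islands at promoters are mostly unmethylated. Cattle autosomes carry their centromere at an end.

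The reference for comparison was the 462409 autosomal CpGs with a median coverage of 20 to 40. The deeply covered CpGs were chosen by their coverage in these same 12 libraries, so their depth is described below without a test. No genome or annotation of the build of the files, ARS-UCD1.2, was used here, and repeats, genes and sequences at these positions were therefore not looked up.

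The median coverage of the deeply covered CpGs had its middle value at 143. It lay between 120 and 150 at 1893 CpGs, between 150 and 200 at 966, and at 200 or more at 322. The highest values were 324.5, 315.5 and 313.5 at chr12:87143741, chr12:87143719 and chr12:87143711 on the minus strand, and 307.5 and 306.5 at chr23:15919 and chr23:15924 on the plus strand. At the threshold, 46 CpGs had a median of exactly 120, such as chr7:5031677, chr5:5626573 and chr22:9759059, and 109 autosomal CpGs lay within 1 scaled read below the threshold. The nearest outside, at 119.5, were chr29:28289, chr20:112312 and chr25:601919. Depth was cut off from above as well. The authors had discarded the very deepest CpGs of every library by a percentile cut-off, which left a highest depth of 303 reads before scaling in Tough 6 and 460 in Tender 10, so sites with still more reads are not in the table. Every CpG of the table had at least 10 reads in all 12 animals, and no further filter was applied.

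Deeply covered CpGs were rare along most of each autosome and frequent at the start of some. They made up 24.2% of the covered CpGs within the first 100 kb of an autosome (74 of 306, on 8 chromosomes), 1.81% within the first 1 Mb (158 of 8744) and 0.182% within 1 Mb of the last covered CpG (78 of 42967). Away from both ends the share was 0.510%. By chromosome it ran from 0.293% on chromosome 22 to 0.819% on chromosome 20, and the strands were near balance, with 1562 on plus and 1619 on minus. The same threshold outside the autosomes was passed by 416 of 2565 CpGs on unplaced scaffolds (16.2%), 13 of 162 on the mitochondrial genome (8.02%) and 36 of 3042 on chromosome X (1.18%). Sequence left on unplaced scaffolds is sequence that the assembly could not anchor to a chromosome, and mitochondrial DNA is present in many copies per cell. On average the deeply covered CpGs of the unplaced scaffolds were methylated at 70.3% and those of the mitochondrial genome at 0.695%.

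Along the chromosomes, the deeply covered CpGs formed many small groups and few large ones. Joined across gaps of up to 1000 bp, they fell into 1684 clusters, of which 865 (51.4%) held a single member, 748 held 2 to 4 and 71 held 5 or more. The 71 larger clusters held 466 members. Clusters of at least 2 members had a median length of 32 bp, within the 50 bp of a read, and the longest spanned 1073 bp. A gap of 200 bp gave 1707 clusters and a gap of 5000 bp gave 1641. When members on the same strand within 50 bp of the next were joined, as reads that start at the same cut site would cover them, 1742 stacks resulted. Of the 1684 clusters, 1637 (97.2%) were a single such stack, 40 were 2 stacks and 7 were 3 or more, and only 21 clusters had members on both strands. The 865 clusters of a single member are a single stack on a single strand by definition.

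Where CpGs beyond the read or on the other strand were covered, the depth mostly ended with the read. Covered CpGs within 50 bp of a deeply covered CpG on the same strand, which 74.6% of members had, reached a median coverage of 140.5, and 90.3% of them were deeply covered too. Within the same distance on the other strand, where 17.5% of members had a covered CpG, the median was 33.5, with 12.1% deeply covered. At 51 to 200 bp it was 35.5 on the same strand and 29.8 on the other, and beyond 200 bp, up to 1000 bp, it was 30 and 29.5. Around reference CpGs the same medians were 26.8 to 27 at every distance and on either strand. Over the 12 animals, the depth of a deeply covered CpG correlated with that of its neighbours within 50 bp on the same strand at a median r of 0.998 and with those on the other strand at 0.20, against 0.994 and 0.056 around reference CpGs. These correlations are descriptions, since neighbours within 50 bp on a strand share reads. Which opposite ends belong to the same *MspI* fragment was not resolved.

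**Figure D1:**
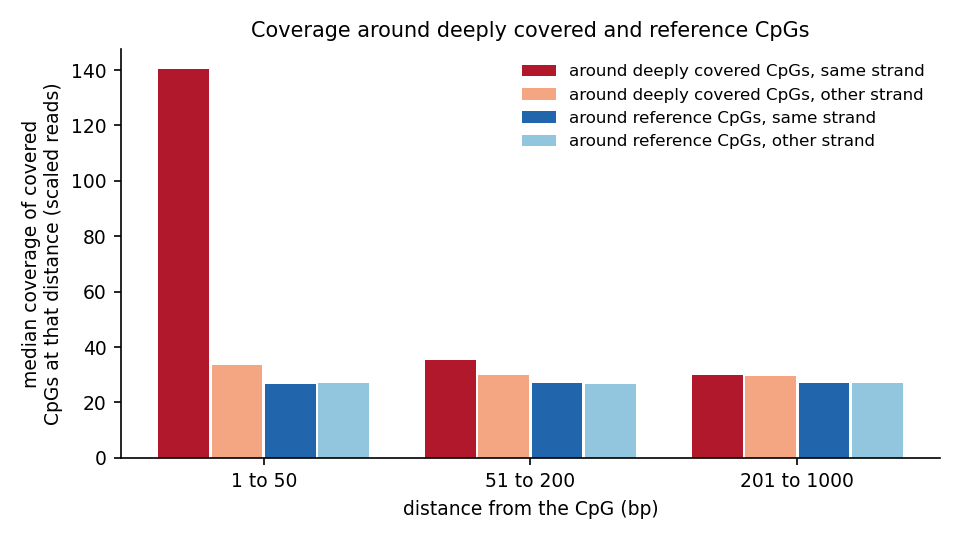
Median coverage (vertical axis, scaled reads) of covered CpGs at 3 distances (horizontal axis, bp) from deeply covered CpGs (red, same strand; light red, other strand) and from reference CpGs (blue, same strand; light blue, other strand). Only the bar for the same strand within 50 bp of deeply covered CpGs, at 140.5, stands far above the rest, which lie between 26.8 and 35.5.

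The opposite cytosine of the same CpG was covered in all animals for 236 members (7.42%), and for 30 of them it was deeply covered as well. Its coverage had a median of 34.25. Methylation on opposite strands was close, with a median absolute difference of 1.58 percentage points, and differed by more than 20 points at 4.66% of these CpGs, against 0.807 points and 1.71% for reference CpGs. The sets were not matched for methylation in this comparison, and more of the reference was methylated under 5% (54.7%, against 28.7% of members). Most deeply covered CpGs therefore lay in stacks no longer than a read on a single strand, with coverage near that of the reference next to them. Whether a stack comes from several copies of a sequence was not tested, and the CpGs are called here by the coverage that chose them.

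The largest cluster, chr5:26562021-26562596, was an exception in that it was deep on both strands over 576 bp. It held 31 members, 24 on minus and 7 on plus, in 5 stacks. Its depth, taken as the median scaled coverage over its members, ran from 148 in Tender 8 to 266 in Tough 3, and no animal stood apart. Single CpGs in it ranged in mean methylation from 30.9% at chr5:26562052 to 96.8% at chr5:26562483. Its mean methylation was 70.2% ± 3.19 (SD, n = 6) in Tough and 67.0% ± 3.64 in Tender, a difference within the spread between animals (exact two-sided permutation test, p = 0.134).

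Several of the next clusters by size lay near the start of their chromosomes, among them that of chromosome 20 described with the spread of depth below. At chr29:28502-28774, 22 members in 3 stacks were methylated at 79.5% on average. Depth there was 104 in Tough 2, 118 in Tough 6, 126.5 in Tough 4 and 127.5 in Tender 10, and between 193 in Tender 11 and 320 in Tough 5 in the other 8 animals. Tough and Tender animals were found at both ends. Methylation ran only from 77.3% in Tender 9 to 82.5% in Tough 4. At chr25:9043-9530, 14 members in 5 stacks had depths from 109 in Tender 10 to 276 in Tender 11 and a mean methylation of 77.3%. At chr13:328461-328545, 7 members ran from 89 in Tough 6 to 278 in Tender 11 at 85.9% methylation.

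Other large clusters were almost unmethylated and even in depth. At chr3:21315276-21316313, which spans 1038 bp with 10 members, depth ran from 132 in Tender 10 to 194.5 in Tender 11, and methylation averaged 6.19%. At chr23:37568644-37569581, 9 members had depths from 145 in Tender 8 to 264 in Tough 1 at 1.40% methylation. After division by each animal's median reference coverage, the highest depth there was 1.43 times the lowest. The 9 members of chr1:52133969-52134203 were methylated at 0.891%, but their depth was less even, from 86 in Tender 7 and 114 in Tender 8 to 248 in Tender 11. The spans on chromosomes 3 and 23 held 47 and 61 covered CpGs, most of which were not deeply covered, whereas all 9 covered CpGs of the chromosome 1 cluster were.

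The 14 clusters within the first 100 kb of an autosome held 74 members with a mean methylation of 74.3%, above the 49.6% of all members. Chromosome 23 had 5 of these clusters, chromosome 25 had 3, and chromosomes 9, 10, 19, 27, 28 and 29 had 1 each. Their depth, in multiples of the median reference coverage of the same animal, was lowest in Tough 6, at a median of 0.691 of the median animal, and highest in Tough 3, at 1.33. Tough 6 was among the 4 lowest animals in 11 of the 14 clusters, Tough 1 in 10, Tough 4 in 8, Tough 2 in 7, Tender 7 and Tender 10 in 5, Tender 11 in 3, Tough 5, Tender 9 and Tender 12 in 2, Tender 8 in 1 and Tough 3 in 0. Clusters of a chromosome start lie close together and need not be independent of each other.

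Whether depth varied between animals was examined relative to each animal's own depth at reference CpGs, which had a median of 24 in Tough 6 to 32 in Tough 1. The libraries had 18399401 to 23470740 scaled reads over all CpGs, of which autosomal members took 2.04% in Tough 1 to 2.92% in Tough 5. Deeply covered CpGs were 4.44 times as deep as the reference in Tough 1 and 4.64 times in Tender 7, and 6.27 times in Tender 11 and 6.93 times in Tough 5. Relative to the mean animal, the median log2 depth of the members was lowest in Tough 1 (-0.29) and Tender 7 (-0.24), followed by Tender 10 (-0.12), Tender 12 (-0.11) and Tough 3 (-0.02). It was highest in Tough 5 (0.35), Tender 11 (0.20), Tough 2 (0.16) and Tough 6 (0.12), with Tough 4 at 0.08, Tender 8 at 0.07 and Tender 9 at 0.02. The same value at reference CpGs lay between -0.01 and 0.06 in all 12 animals. Whole libraries therefore differed in the depth of these CpGs together.

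This shift moved with the bisulfite conversion of the libraries. The study's mapping table gives a conversion value from unmethylated spike-in DNA for each library. These values, not printed here, were split at the wide gap between them into 5 libraries of higher conversion (Tough 2, 5 and 6 and Tender 8 and 11) and 7 of lower conversion, a split that the study did not make. The log2 depth of members was 0.25 higher in the higher-conversion libraries at the median, against -0.00 at reference CpGs, and 77.3% of members were deeper in them. At 432 members (13.6%) every higher-conversion library was deeper than every lower-conversion library, against 0.414% of all autosomal CpGs, and at 0 members the reverse held, against 0.152%. Counting error blurs such separation less at the median coverage of members, 143, than at that of reference CpGs, 26.5. These shares therefore do not compare the size of the shift. The median difference was 0.33 for members with over 80% methylation and 0.15 for those with under 20%. The part of conversion in depth was not tested. Tender and Tough animals differed by -0.10 in median log2 depth, and by -0.04 within the lower-conversion libraries and -0.08 within the higher-conversion ones. At 0 members every Tender animal was deeper than every Tough animal and at 2 members every Tough animal was deeper, against 0.0978% and 0.112% of all autosomal CpGs.

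**Figure D2:**
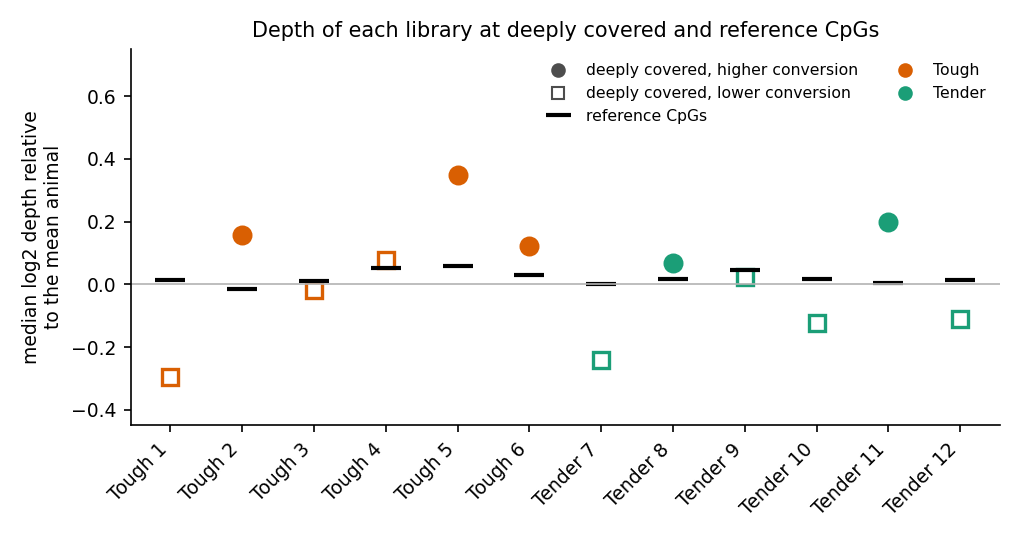
Median log2 depth of the deeply covered CpGs in each animal relative to the mean animal (vertical axis), after division by the animal's median depth at reference CpGs. Filled circles are libraries of higher and open squares of lower bisulfite conversion, orange is Tough and green Tender, and black bars are reference CpGs. The 5 circles lie between 0.07 and 0.35 and the 7 squares between -0.29 and 0.08, while the bars stay between -0.01 and 0.06.

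At single CpGs, the spread of depth between animals was expressed as the coefficient of variation with the counting part subtracted. It had a median of 21.8% at deeply covered CpGs (middle range 15.7% to 29.4%) and 17.9% at reference CpGs (11% to 24.0%). The gap of 3.84 points shrank to 0.489 when the median shift of each library was removed, with 18.4% against 17.9%. Within the 5 higher-conversion libraries the order turned, with 16.8% at members and 18.4% at the reference, and within the 7 lower-conversion libraries it was 17.2% against 14.8%. Without subtracting the counting part the members varied less, at 23.7% against 27.8%. The middle of the distribution thus gave no gap of stable direction. The upper tail was heavier: 2.04% of members had a coefficient over 50%, against 0.216% of reference CpGs, and 1.57% against 0.215% with the library shift removed. The deepest animal had more than 5 times the depth of the shallowest at 137 members (4.31%) and at 0.828% of reference CpGs, counting error included. Every CpG had at least 10 reads in each animal, so a reference CpG could fall less far below its median than a member could. The part of this filter in the heavier tail was not tested. Of the 1684 clusters, Tough 5 was the deepest animal in 567 (33.7%), and the shallowest was Tough 1 in 534 (31.7%) and Tender 7 in 306 (18.2%).

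Among clusters of at least 5 members, the 5 with the widest spread of depth included some in which methylation stayed close between animals. At chr20:112311-112357, 9 members on both strands had a depth of 24 in Tough 6, 75 in Tender 9 and 112 in Tough 1, between 225 and 387 in 8 others, and 534 in Tender 10. After division by each animal's median reference coverage, the highest was 21.4 times the lowest. The highest scaled coverage anywhere in the table was 546 in Tender 10, reached at chr20:112311 in this cluster, and 330 in Tough 1. The depth that could be seen in this cluster was therefore limited from above, at a level that differed between animals. Methylation there stayed between 64.3% in Tough 1 and 68.9% in Tough 4, and in Tough 6, with the fewest reads, it was 67.7%. The single-stack cluster chr21:33020047-33020096 had the same 3 lowest animals, with 51 in Tough 6, 62 in Tender 9 and 81 in Tough 1, and its highest were 345 in Tough 5 and 322 in Tender 10. Its methylation lay between 65.2% and 76.3%.

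Other clusters had other low animals. At chr4:169717-169748, depth was 35 in Tough 4 and 53 in Tender 9 and rose to 268 in Tough 3, with methylation between 61.0% and 73.8%. At chr18:62659666-62659821 it was 90 in Tender 7, 102 in Tender 9 and 122.5 in Tough 1, against 332 in Tough 4, 373 in Tough 2 and 439 in Tender 10, and methylation stayed between 76.4% and 82.3%. At chr24:31231495-31231522, Tough 3 had 54.5 and Tender 7 had 290, and here methylation varied too, from 66.8% in Tough 6 to 96.7% in Tough 2. These clusters were chosen for their spread, so the values describe them and test nothing. At the other end, the 6 members at chr12:87143300-87143741, the site of the highest coverage, ran only from 186.5 in Tender 10 to 273.5 in Tender 12, at 86.4% methylation.

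**Figure D3:**
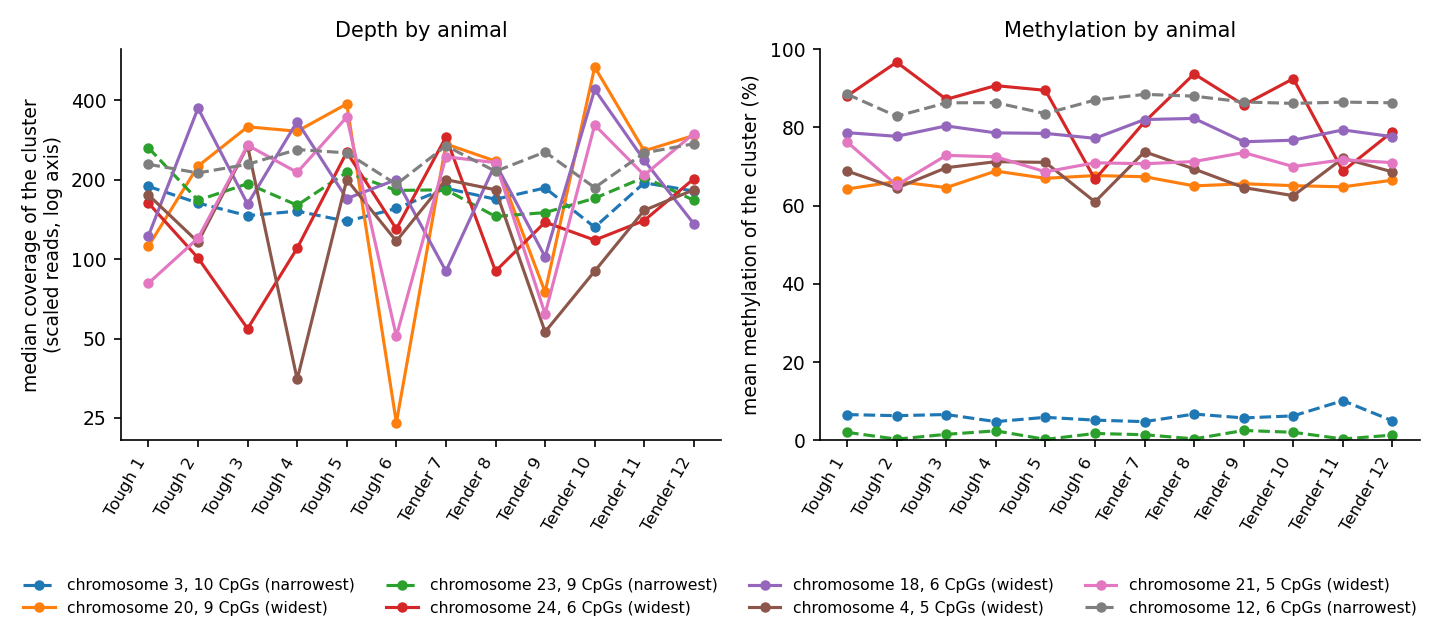
Depth (left, median scaled coverage of the cluster, log axis) and methylation (right, %) in each of the 12 animals for the 5 clusters with the widest spread of depth (solid lines) and the 3 with the narrowest (dashed lines). Lines join the values of a cluster and imply no order of animals. The chromosome 20 cluster runs from 24 to 534 in depth while its methylation stays between 64.3% and 68.9%.

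Within the chromosome 20 cluster, a single CpG stood apart from the others. Mean methylation was between 72.8% and 80.5% at 7 of the 9 members, 49.7% at chr20:112341 on the minus strand and 7.91% at chr20:112340 on the plus strand, which is the opposite cytosine of the same CpG. The CpG just below the threshold, chr20:112312, was methylated at 6.75% on the minus strand, against 80.5% at its opposite cytosine chr20:112311. Depth at chr20:112312 was 18 in Tender 9 and 251 in Tender 10.

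Deeply covered CpGs were more methylated than the reference. The mean over members was 49.6% and the median 58.6%, against 27.7% and 3.48% at reference CpGs. In single animals, the mean of the members lay between 48.8% in Tough 2 and 50.4% in Tender 8, and that of the reference between 26.7% and 28.1%. The gap was 21.4 points in Tender 9, the smallest, and 22.5 points in Tender 8, the largest, and it had an SD of 0.391 points over the 12 animals. Of the members, 28.7% were methylated under 5%, 8.80% at 5% to 20%, 24.4% at 20% to 80%, 24.5% at 80% to 95% and 13.6% at 95% or more. The reference had 54.7%, 9.45%, 17.0%, 12.3% and 6.61% in these classes.

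Methylation did not keep rising with depth. Its mean was 25.9% at a median coverage of 10 to 20, 27.6% at 20 to 40, 37.0% at 40 to 60, 48.4% at 60 to 80, 52.8% at 80 to 100 and 55.6% at 100 to 120. Above the threshold it was lower again, at 50.9% for 120 to 150, 48.5% for 150 to 200 and 45.7% for 200 or more. The most deeply covered CpGs also had the largest share between 20% and 80%, at 29.2%, and the smallest share at 95% or more of any bin from 40 upwards, at 7.45%.

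**Figure D4:**
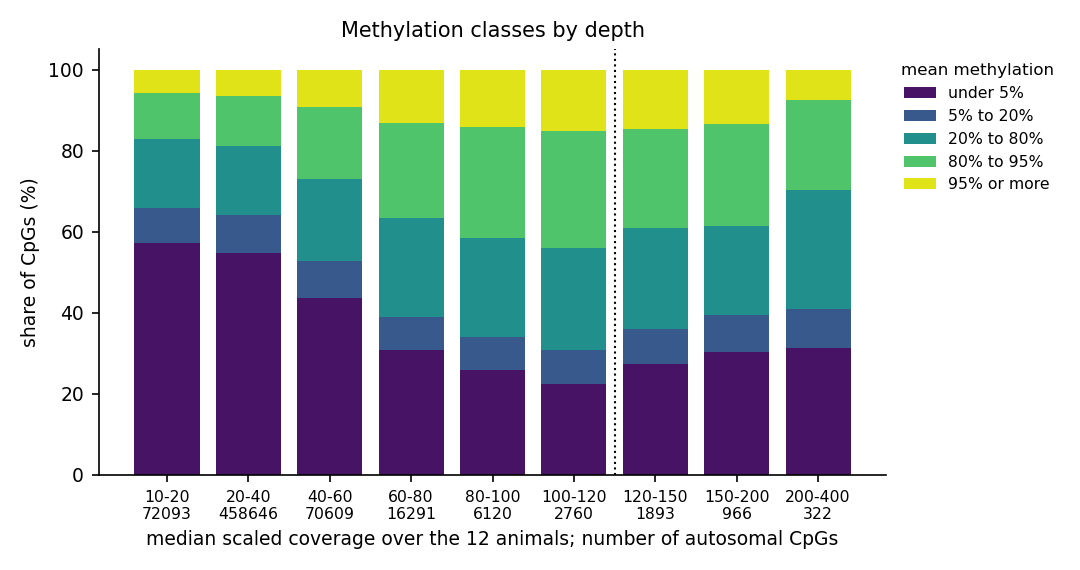
Share of autosomal CpGs (vertical axis, %) in 5 classes of mean methylation, for bins of median scaled coverage (horizontal axis, with the number of CpGs in each bin). The dotted line marks the threshold of 120. The share under 5% falls from 57.1% at 10 to 20 to 22.5% at 100 to 120 and is 31.4% at 200 or more.

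The size of the gap depended on what was counted as a unit. A stack of members held 1.83 CpGs on average and a stack of reference CpGs 3.601, and clusters held 1.89 and 7.14. With 1 value per stack, mean methylation was 54.8% for members and 39.6% for the reference, a gap of 15.2 points. With 1 value per cluster it was 55.1% and 54.1%, a gap of 1.07 points. The share between 20% and 80% was higher in members by 7.38 points when CpGs were counted and by 0.52 points by stack, and the difference turned to -8.37 points by cluster. The gap in methylation thus held between CpGs and between stacks, and was nearly gone between clusters.

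Some clusters had a mean nearer the middle of the scale. The 5 clusters of at least 5 members whose mean was closest to 50% were chr18:51183936-51184273 at 44.2%, chr3:24133860-24133902 at 41.5%, chr19:25177-25222 at 60.4%, chr19:37886329-37886567 at 61.3% and chr13:345840-345986 at 65.9%. Single members could lie far from these means, from 4.92% to 92.8% at chr19:25177-25222 and from 17.0% to 69.8% at chr18:51183936-51184273. They ran from 37.2% to 81.4% at chr19:37886329-37886567, from 49.4% to 78.9% at chr13:345840-345986, and only from 34.9% to 44.5% at chr3:24133860-24133902. At chr18:51183936-51184273 the cluster's mean methylation lay between 37.3% in Tough 5 and 51.2% in Tough 2, while depth ran from 51 in Tough 4 and 55 in Tender 12 to 172 in Tender 9 and Tender 11. At chr19:25177-25222 it lay between 56.8% in Tender 9 and 67.8% in Tender 11. Both groups of animals overlapped in all of these clusters.

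In every class from 5% methylation upwards, the spread between animals was smaller at deeply covered CpGs than at reference CpGs of like methylation. With the binomial counting part removed, the median SD was 5.92 points at members and 10.6 points at reference CpGs in the class of 20% to 80%. It was 3.19 against 6.15 at 5% to 20%, 3.16 against 6.42 at 80% to 95%, and 1.596 against 2.49 at 95% or more. Under 5% the order was the other way, 1.05 against 0, where the counting part of the shallower reference took up the whole spread. Over all CpGs the medians were 2.42 and 2.41, with 54.7% of the reference and 28.7% of the members in the class under 5%. The reference CpGs had a median coverage of 26.5, and the members of 143, so the part that had to be removed was far larger at the reference. Reads of the same molecule cannot be told apart, so only the binomial part was removed. How far sampling error that remained bears on the order was not tested.

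**Figure D5:**
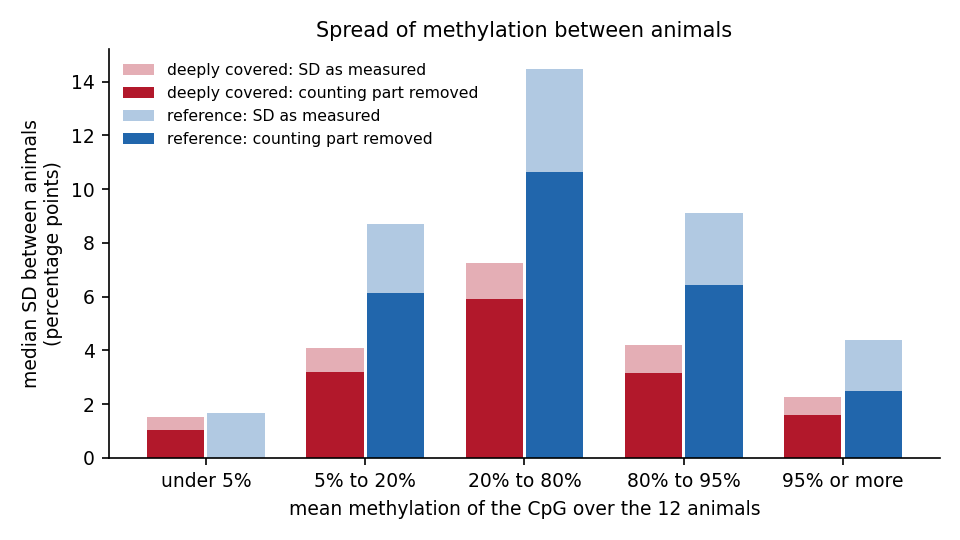
Median SD of methylation between the 12 animals (vertical axis, percentage points) by class of mean methylation (horizontal axis) for deeply covered (red) and reference CpGs (blue). Pale bars are the SD as measured and full bars the SD with the binomial counting part removed. At 20% to 80% the full bars stand at 5.92 and 10.6.

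At single members the range of methylation over the 12 animals was under 10 points at 1403 (44.1%) and over 50 points at 51 (1.603%), against 41.2% and 8.13% of reference CpGs, counting error included. At 18 members (0.566%) the lowest animal did not exceed 5% while the highest reached 90%, against 0.432% of reference CpGs. At chr22:42952315, for example, methylation was 1.504% to 3.17% in Tough 1, 2, 3 and 6 and Tender 11, between 44.4% and 56.9% in Tough 4 and 5 and Tender 7, 9 and 10, and 91.8% and 92.6% in Tender 8 and 12. The 12 values thus lay in 3 levels with nothing between them. Genotypes were not examined.

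Among clusters of at least 5 members, methylation ranged most at chr2:121575235-121575283, a stack of 9 members, from 8.21% in Tender 12 and 13.8% in Tough 6 to 28.7% in Tough 5 and 50.7% in Tender 11. Tender 11 was the highest animal and also had the greatest depth there, 289, while the lowest depth was 156 in Tender 8. At chr12:76736010-76736048 the 7 members ran from 13.3% in Tough 1 to 37.6% in Tender 7, at chr3:24133860-24133902 from 28.9% in Tender 10 to 57.5% in Tender 8, and at chr26:25602601-25602764 from 73.3% in Tender 11 to 95.4% in Tender 10. In the chromosome 26 cluster the member chr26:25602640 alone ran from 4.65% to 98.2%, while all others stayed between 82.7% and 100%. None of the clusters named here differed between Tough and Tender in the exact two-sided permutation test, with p-values from 0.134 to 0.994. The smallest p-value that 6 against 6 animals can give is 0.00216.

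The comparison of Tough and Tender asked whether methylation at these CpGs went with tenderness. The mean over all members was 49.5% ± 0.469 (SD, n = 6) in Tough and 49.8% ± 0.370 in Tender. The difference of 0.246 points was smaller than either SD, and Tender minus Tough was 0.661 points within the higher-conversion libraries and -0.0199 points within the lower-conversion ones. For single CpGs, a logistic regression with overdispersion was fitted to the whole table, and a differentially methylated cytosine (DMC) needed a Benjamini-Hochberg adjusted p-value under 0.05 and a pooled difference over 25%. Among the deeply covered CpGs there were 0 DMCs, against 0.019% of all CpGs. An unadjusted p-value under 0.05 was found at 284 of them (8.93%), against 8.29% of all CpGs. The F-test called 0 DMCs among members and 9 in the whole table (0.00142%), and limma on log2 ratios called 0 in either. An unadjusted p-value under 0.05 was found at 190 members by the F-test (5.97%, against 6.05% of all CpGs) and at 144 by limma (4.53%, against 4.91%). Without Tough 1, the member at chr17:56184723 became a DMC.

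The adjusted p-value alone was passed by 7 members (0.220%), 4 higher in Tender and 3 higher in Tough, against 0.135% of all CpGs, of which 0.0888% were higher in Tender and 0.0463% in Tough. With more reads a smaller difference can pass, so these shares do not compare the size of differences. The median absolute pooled difference was 1.19 points at members and 1.52 at all CpGs. The F-test passed 2 members (0.0629%, against 0.0263% of all CpGs), and limma passed 0 of all CpGs. Leaving out Tough 1 gave 13 members (0.409%, against 0.184% of all), Tender 10 gave 13 (0.409%, against 0.169%) and Tender 12 gave 11 (0.346%, against 0.148%). All 7 lay near the ends of the methylation scale, and their pooled differences lay between -5.55% and 6.66%. The largest was at chr14:73504639, where Tough animals ran from 83.8% to 93.3% (90.02% ± 3.58, SD) and Tender animals from 95.3% to 98.3% (96.4% ± 1.07), without overlap (adjusted p-value 0.00916). The opposite was seen at chr29:33803687, with 91.3% to 97.3% in Tough and 86.7% to 91.6% in Tender, which overlapped.

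The other 5 lay near 0%. At chr18:41923359 Tough animals had 0.595% to 3.16% and Tender animals 4.55% to 9.42%, at chr18:44816720 they had 0.709% to 4.35% and 5.45% to 10.1%, and at chr3:49239188 they had 0% to 2.05% and 2.20% to 6.73%. None of these 3 overlapped. Over all members every Tender animal was above every Tough animal at 6 (0.189%), against 0.06% of all CpGs, and below at 1 (0.0314%), against 0.0365%. Such separation is less blurred by counting error where there are more reads, as at members. At chr16:55239202 all Tender animals were at 0% and Tough animals at 0% to 5.30%, and at chr16:64518035 Tender animals reached 0.787% and Tough animals 5.44%. Neighbours were covered CpGs within 50 bp on the same strand. The only neighbour of chr16:55239202 differed by -1.99%, against -2.33% at the CpG itself. The mean difference of neighbours was 0.119% over 4 neighbours at chr16:64518035, 1.28% over 3 at chr18:41923359 and -0.0594% over 2 at chr3:49239188.

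Large differences occurred as well but did not pass. The pooled difference was over 25% at 7 members (0.220%), against 0.225% of all CpGs, with adjusted p-values from 0.142 to 0.736, and the animals of a group were far apart there. At chr23:9534566 methylation was 62.7% in Tough 2, 53.2% in Tough 4 and 91.0% in Tough 6, and at most 1.14% in the other 9 animals, for a pooled difference of -38.8% (adjusted p-value 0.196). At chr10:8029883 it was 2.84% in Tender 8, 26.7% in Tender 12, 42.9% in Tough 5 and 51.8% in Tender 11, and 78.7% to 91.4% in the other 8. At chr5:85648144 a single animal, Tough 2, was at 0%, 3 lay between 40.2% and 59.2%, and 8 between 87.1% and 97.9%.

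At these 3 CpGs the values that stood apart came from a few animals. At chr17:56184723 the values were spread more evenly instead, from 18.0% to 62.5% in Tough and from 51.6% to 75% in Tender (40.4% ± 16.3 against 63.3% ± 9.68, adjusted p-value 0.142). Without Tough 1, which had the 62.5%, its pooled difference was 29.2% with an adjusted p-value of 0.0376. The residual spread that the model estimated, relative to binomial sampling, had a median of 2.78 at members and 1.51 at reference CpGs. For the same spread between animals this factor rises with the number of reads. Median coverage was 143 at members and 26.5 at reference CpGs, so the factors do not compare the spread between animals.

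Regions of 100 bp were tested in the same way. Of 193249 windows, 1962 held a deeply covered CpG. Differentially methylated regions (DMRs) numbered 0 among them, against 0.0217% of all windows, and 157 (8.002%) had an unadjusted p-value under 0.05, against 8.76% of all. The F-test, windows of 200 bp and reads before scaling also gave 0, of 3, 33 and 35 DMRs in all. The adjusted p-value was under 0.05 in 7 windows with a member (0.357%), against 0.288% of all windows, with differences between -5.55% and 6.66%. Of these 7, 4 were those of the CpGs at chr14:73504639, chr16:55239202, chr18:44816720 and chr29:33803687, which had no other covered CpG in their window. The others were chr1:131367601-131367700, with 3.34% ± 1.13 in Tough and 1.12% ± 0.524 in Tender, chr15:30157901-30158000, with 95.1% ± 1.23 and 90.7% ± 2.82, and chr9:36558301-36558400, with 0.0554% ± 0.136 and 1.27% ± 0.860.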

How the data were processed

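RRBS libraries of *longissimus thoracis* from 12 animals, 6 Tough and 6 Tender, were analysed, with the animal as the replicate. Per the labels and methods, the authors used Trim Galore 0.4.1 for trimming, Bismark 0.23.0 for alignment to the ARS-UCD1.2 assembly and methylKit 1.8.1 for the rest. There they set a minimum of 10 reads, an upper percentile limit on coverage and a normalization, and only cytosines found in every animal remained. Each deposited value is a score: the reads of an animal multiplied by 1 factor (1 to 1.27) and rounded. Reads of the same molecule cannot be told apart, so counting parts cover counting error only. The design had assumed unscaled reads. The model was kept, and reads before scaling were recovered for every value (0 failures) as an alternative.

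Deeply covered CpGs, clusters and tests were chosen with earlier results of these data known. Members were autosomal CpGs with a median coverage of 120 or more. Regions named are the 10 clusters with most members (ties by higher coverage), clusters of at least 5 members with the 5 widest and 3 narrowest depth spreads, the 5 nearest to 50% methylation and the 5 with the widest methylation range, the 5 deepest CpGs and those at the threshold. Members with an adjusted p-value under 0.05 or a difference over 25%, chr22:42952315 and the clusters of the first 100 kb were named after their values were seen. Depth was divided by the animal's median over reference CpGs (median coverage 20 to 40), and its coefficient of variation had the Poisson part subtracted, as the SD of methylation had the binomial part.

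Tender and Tough were compared by logistic regression on all 635469 CpGs, with the McCullagh and Nelder overdispersion factor (not below 1), a chi-square test and Benjamini-Hochberg adjustment, and by the exact two-sided permutation test for single values. The model was tested on simulated data. Python 3.11.15, numpy 2.4.6, pandas 2.3.3, scipy 1.17.1, matplotlib 3.10.9 and, for an alternative with a pseudocount of 1, limma 3.58.1 in R 4.3.3 were used. Alternatives were the F-test, no overdispersion, other thresholds and gaps, unscaled or pooled reads, a conversion covariate and leaving out each animal. Stacks as units, removal of the library shift and values within conversion groups, which were formed here from the study's spike-in values, were added after seeing the data. Genes and repeats were not looked up, as no annotation of the build was used.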

Additional observations from a re-analysis of the deposited data

Results flagged for a closer look

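In 90 sets of 6 animals, 84 made of the depth and the methylation of the 21 named clusters within each group and 6 of means and medians over all members, the highest or lowest animal was tested for its distance from the rest, and 3 stood apart by Dixon's criterion. Chance flags about 1 in 20 such sets. At chr3:21315276-21316313, methylation was 10.2% in Tender 11 and 4.81% to 6.75% in the other Tender animals. At chr24:31231495-31231522, it was 66.8% in Tough 6 and 87.2% to 96.7% in the other Tough animals. At chr19:37886329-37886567, it was 55.0% in Tough 3 and 62.6% to 66.7% in the other Tough animals. The cause was not tested in any of them.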

How the results depend on the processing

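No paired analysis was possible because the groups share no replicate numbers. At median coverages of at least 100 and 150, members numbered 5941 and 1288, in 3149 and 664 clusters, 1895 by unscaled reads, and 622 with every animal at 120 or more. DMCs among members numbered 0 except for 7 without the overdispersion correction (of 1431 in the whole table), and 0 to 1 over animals left out, while DMRs stayed at 0 (0 to 0). Members with an adjusted p-value under 0.05 (7) numbered 2 by the F-test (0.0629%, against 0.0263% of all CpGs), 321 without the correction (10.1% against 4.59%), 0 by limma (0 of all CpGs), 1 at an adjusted p-value under 0.01 (0.0314% against 0.0269%), 11 with conversion as a covariate (0.346% against 0.233%), and 11 and 1 at coverages of at least 100 and 150 (0.185% and 0.0776%, against 0.135%). Leaving out animals gave 5 to 13, with 13 without Tough 1 or Tender 10 and 11 without Tender 12. As members had more reads, smaller differences could pass there than at most CpGs. The Tender minus Tough mean was 1.36 points with reads pooled, -0.0199 in lower-conversion libraries, and 0.101 to 0.366 over animals left out. The methylation gap of members over the reference (22.0 points) was 21.3 with reads pooled, 24.7 and 20.2 at coverages of at least 100 and 150, 15.2 by stack and 1.07 by cluster, and 21.9 to 22.0 over animals left out. The gap in the share between 20% and 80% (7.38 points) was 6.82 at 150 or more, 0.52 by stack and -8.37 by cluster, and 7.08 to 7.64 over animals left out. The gap in depth spread (3.84 points) was 5.99 by cluster, -4.12 without subtracting counting, 0.489 without the library shift, -1.65 in higher-conversion libraries, and 3.02 to 4.56 over animals left out. The gap in methylation spread over all CpGs (0.00777 points) had no stable sign: -1.07 without subtracting counting, -0.0288 with unscaled reads, 2.01 by cluster, 2.05 by stack, 0.325 and -0.119 at 100 and 150, and 0.0623 to 0.153 over animals left out. By class, it was 1.05 under 5%, then -2.96, -4.71, -3.26 and -0.896 in the higher classes. The causes were not tested.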
